A study of Sus scrofa with 20 samples.

Results

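Muscle of pigs at 90 days after birth (days post natum, dpn) was compared with muscle at 28 dpn in 2 breeds, Landrace (LR) and Lantang (LT). The 4 libraries labelled with these stages were taken from the 20 libraries of a series that followed the longissimus muscle from 35 days after conception (days post coitus, dpc) to 180 dpn. They held 272679 of the 801159 distinct tags of the series. The groups were LR at 28 dpn, LR at 90 dpn, LT at 28 dpn and LT at 90 dpn, with 1 library each. Each library was made from RNA pooled in equal amounts from 3 animals, which were purebred boars castrated early in life, and no treatment was given. Landrace is a lean, fast-growing breed and Lantang an obese Chinese breed. Because pooling left 1 library for each breed and stage, the breeds stood in for replicates of a stage. The p-values of the test over both breeds rest on how far the stage difference varied between breeds, with information shared across tags. They do not measure the spread between animals. The p-values of the tests within a breed cover counting error only.

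The longissimus runs along the back and is made of long multinucleate fibers. After birth the number of fibers is largely set and the muscle grows by enlargement of the fibers, while the fetal and neonatal forms of contractile proteins give way to adult ones and fast glycolytic fibers gain in share. Fat cells also fill in between the fibers during postnatal growth, earlier and more heavily in obese breeds.

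The measurement was digital gene expression, in which the enzyme NlaIII cuts cDNA at CATG and the 21 bases beginning with the cut site nearest the 3′ end are sequenced and counted as a tag. A tag usually stands for the 3′ part of 1 transcript, and its level is given in TPM, the copies of the tag in 1000000 clean tags. Tags were not matched to transcripts here, so they are named by a letter and a number and printed by sequence, and the muscle label was not checked against marker genes. In a bulk sample, fewer cells of a type and less RNA per cell cannot be told apart. Names beginning with H mark tags higher at 90 dpn in both breeds, L tags lower in both, M the 8 most abundant tags, and X and Y tags whose difference had opposite signs in the breeds.

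The tags on which the comparison turned are printed below 5′ to 3′, with the CATG site and any AATAAA, the usual polyadenylation signal, in capitals. The first 8 are the tags ranked highest among those lower at 90 dpn in both breeds, ordered by the smaller of their differences in the breeds.
L1: CATGtcggttaaaaaatttgt
L2: CATGtgagagggggaaaaaaa
L3: CATGttggtatgtgtgaaagc
L4: CATGggtaaattattggcaag
L5: CATGtaaattttgaaggcata
L6: CATGcaaaaaatgtttaaatt
L7: CATGgactatttctatcttat
L8: CATGggcttatgtaaaagctc
The next 3 are a pair of abundant tags lower in both breeds and a tag that ends in a run of A.
L10: CATGaaatactatttcctcaa
M8: CATGagcaaaaattcactttg
L9: CATGtaAATAAAaaaaaaaaa
The following tags were higher at 90 dpn and reached more than 100 TPM in both breeds.
H4: CATGtttccgaagacccttga
H8: CATGgccagttgttctttaag
H11: CATGcagagcacgctggatgc
H12: CATGcttgatgtggagaggtc
The last pairs show tags whose direction differed between the breeds, each with its most abundant neighbour 1 base away.
X1: CATGtatgatgactaatcatt
X1 neighbour: CATGtatgatgactaatcagt
X2: CATGgaatctaaccacgacca
X2 neighbour: CATGgaatttaaccacgacca
Y4: CATGcactgctctgagccaca
Y4 neighbour: CATGcactgctctgagccgca

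Library totals were 2908962 clean tags for LR at 28 dpn, 2157111 for LR at 90 dpn, 5127896 for LT at 28 dpn and 3953120 for LT at 90 dpn, so that 3 counts, taken here as the smallest detectable amount, equalled 1.03, 1.39, 0.585 and 0.759 TPM. The libraries differed in make-up as well as in depth. When each was reduced to 2157111 clean tags, they were estimated to hold 96955, 74054, 108667 and 166753 distinct tags in the same order. The share of clean tags with a run of 8 A was 0.297% and 0.0605% in LR at 28 and 90 dpn and 0.658% and 0.307% in LT, lower at 90 dpn in both breeds. The mean GC content of the 17 bases after the site was 46.4% and 46.2% in LR but 42.5% and 45.7% in LT. Outside the comparison, the LR libraries of 120 and 180 dpn stood apart from the other 18. A further CATG was held by 0.116% and 0.224% of their clean tags, against 2.14% to 3.80% in the others, and AATAAA by 15.7% and 14.8%, against 1.92% to 6.79%. Values of LR at these later stages are therefore those of libraries of unlike make-up. The part of these properties in the results below was not tested.

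Over both breeds, no tag passed the test for a difference between 90 and 28 dpn. Of 27073 tags tested by edgeR's quasi-likelihood test with breed as a block, 0 were called at a Benjamini-Hochberg adjusted p below 0.05 (0%), with a smallest adjusted p of 0.236. An unadjusted p below 0.05 was reached by 1598 tags, 5.90% against the 5% that chance alone would give. DESeq2 called 52 tags on the same counts, 21 higher and 31 lower at 90 dpn, and gave no adjusted p for 19421 tags. In counts simulated with the spread fitted here, edgeR recovered 53 of 200 tags changed 4-fold or 16-fold. Finding 0 calls is therefore no evidence that the stages were alike. Without LR at 90 dpn, a fit that also held the 2 dpn libraries called 890 tags, and leaving out any of the other 3 libraries gave 29 to 47.

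The 4 libraries differed by breed as well as by stage. The variation of log2(TPM + 1) over the 4 libraries was split for the 8602 tags that averaged 10 TPM or more. Breed accounted for 47.6%, stage for 31.3% and the remainder, the difference between the breeds in the stage contrast, for 21.1%. With 1 library for each breed and stage, every share also holds variation between pools and counting error. The remainder therefore cannot be told apart from such noise. With single-base variants of a tag joined to the more abundant form, breed took 35.9% and stage 38.9%, so the order of these shares rests on how such tags are treated. Across tags, Pearson's r was 0.777 between the LR libraries and 0.646 between the LT libraries. It was 0.597 between the breeds at 28 dpn and 0.643 at 90 dpn. These correlations are across tags, which are not independent replicates.

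More of the transcript population was exchanged in LT than in LR. From 28 to 90 dpn, 28.7% of the clean tags would have to be reassigned to other tags to turn one LR library into the other, and 43.5% in LT. The SD of the log2 difference across the 8602 tags was 1.14 in LR and 1.45 in LT. More than a 2-fold difference on the log2(TPM + 1) scale was seen for 29.6% of the tags in LR and 47.3% in LT. With 1 library in each group, neither these values nor their difference between breeds has a replicate check.

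The direction of the difference was shared by 4776 of the 8602 tags (55.5%), of which 1925 were higher and 2851 lower at 90 dpn in both breeds, and Pearson's r of the log2 differences across tags was 0.20. Among tags that differed more than 2-fold in both breeds, 902 had the same direction and 384 the opposite. In LT the median log2 difference ran with base composition, from -0.44 for tags under 30% GC to -0.0049 for tags of 60% or more, while in LR it lay between -0.11 and -0.086 in each of 4 GC classes.

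**Figure D1:**
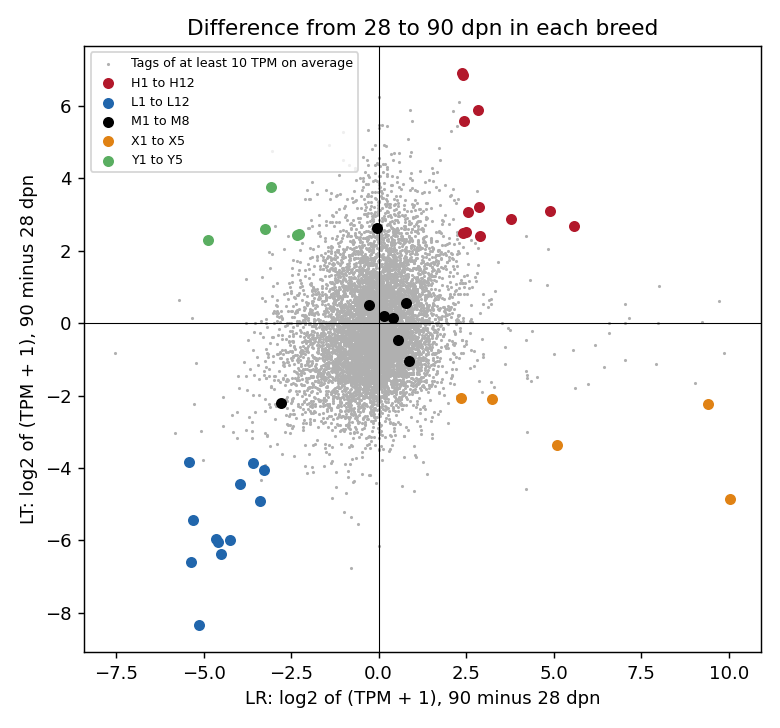
Difference between 90 and 28 dpn of log2(TPM + 1) in LR (horizontal axis) and in LT (vertical axis), one grey point for each of the 8602 tags averaging 10 TPM or more and coloured points for the named tags. The cloud is wide in both directions with r = 0.20, and the named tags lie at its edges in each quadrant, as their selection requires, except for the M tags.

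Within each breed, an exact binomial test compared the 2 libraries tag by tag, which covers counting error only and says nothing of the spread between pools. In LR 4335 of 121204 tags were called (3.58%), 1846 higher and 2489 lower at 90 dpn. In LT 15963 of 241173 were called (6.62%), 8668 higher and 7295 lower. With TMM factors in place of library totals, the share of higher tags among the calls moved from 42.6% to 52.4% in LR and from 54.3% to 58.4% in LT. Part of the gap between the breeds went with depth, since after every library had been thinned to the smallest total LT had 7982 calls and LR 3889. A tag was called in both breeds in 2286 cases, 52.7% of the LR calls and 14.3% of the LT calls. Of these 592 were higher in both (0.217% of the 272679 tags), 957 were lower in both (0.351%), 361 were higher in LR and lower in LT, and 376 were lower in LR and higher in LT. Higher tags made up 38.2% of those with a shared direction, and 48.3% with TMM factors.

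The 957 tags lower in both breeds carried a fair part of the RNA at 28 dpn. They summed to 14.3% of clean tags in LR and 20.1% in LT at 28 dpn, and to 5.57% and 5.19% at 90 dpn. For the 592 tags higher in both, the sums were 7.33% and 5.29% at 28 dpn and 15.3% and 13.0% at 90 dpn. These sums describe the selection and are no test of it. The sets also differed in sequence, which the selection did not use. Mean GC content was 47.8% in the higher set and 40.8% in the lower set, beside 43.6% over all tags tested by edgeR. AATAAA was present in 0.338% of the higher set, 3.55% of the lower set and 1.99% of all tested tags. Neither feature was particular to a shared direction. Tags higher in LR and lower in LT had a mean GC content of 42.5%, with AATAAA in 7.48%. Those lower in LR and higher in LT had 46.2% and 1.06%. Both features thus went with the direction in LT. AATAAA was held by 3.96% and 6.48% of clean tags in LR at 28 and 90 dpn, and by 6.79% and 3.20% in LT. A run of 8 A was found in 44 of the 957 lower tags, in 0 of the 592 higher tags and in 0.728% of all tested tags, beside the lower share of such tags in both libraries of 90 dpn.

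The libraries of 2, 120 and 180 dpn were not used in the choice of these sets. The sets were not matched to all tested tags in level or GC content, however. Over the 4 libraries the median of the mean level was 31.2 TPM in the higher set, 25.4 TPM in the lower set and 6.07 TPM over all tested tags. Mean GC content in LT was 43.8% at 2 dpn, 46.8% at 120 dpn and 46.5% at 180 dpn. The part of level and GC content in the shares below was not tested. In LT, 540 of the 592 higher tags (91.2%) were also higher at 120 dpn than at 2 dpn, against 39.2% of all tested tags, with a median log2 difference of 2.24, and at 180 dpn the share was again 91.2% against 42.4%. In LR the shares were 34.1% at 120 dpn and 30.9% at 180 dpn, against 25.3% and 27.1% of all tested tags. The median of the higher set was 38.7 TPM at 90 dpn and 40.8 TPM at 120 dpn in LT, and 46.1 and 4.66 TPM in LR. Over all tested tags the median was also lower in LR at 120 dpn, at 1.46 TPM after 5.56 TPM at 90 dpn, and stage, breed and the make-up of the LR libraries of 120 and 180 dpn cannot be told apart in these later values. Of the 957 lower tags, 18.9% were higher at 120 dpn and 18.3% at 180 dpn than at 2 dpn in LT, against 39.2% and 42.4% of all tested tags. In LR the shares were 25.0% at 120 dpn, near the 25.3% of all tested tags, and 45.9% at 180 dpn, above the 27.1% of all tested tags. The run of 8 A was held by 1.22% of clean tags in LR at 180 dpn and by 0.136% at 120 dpn.

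**Figure D2:**
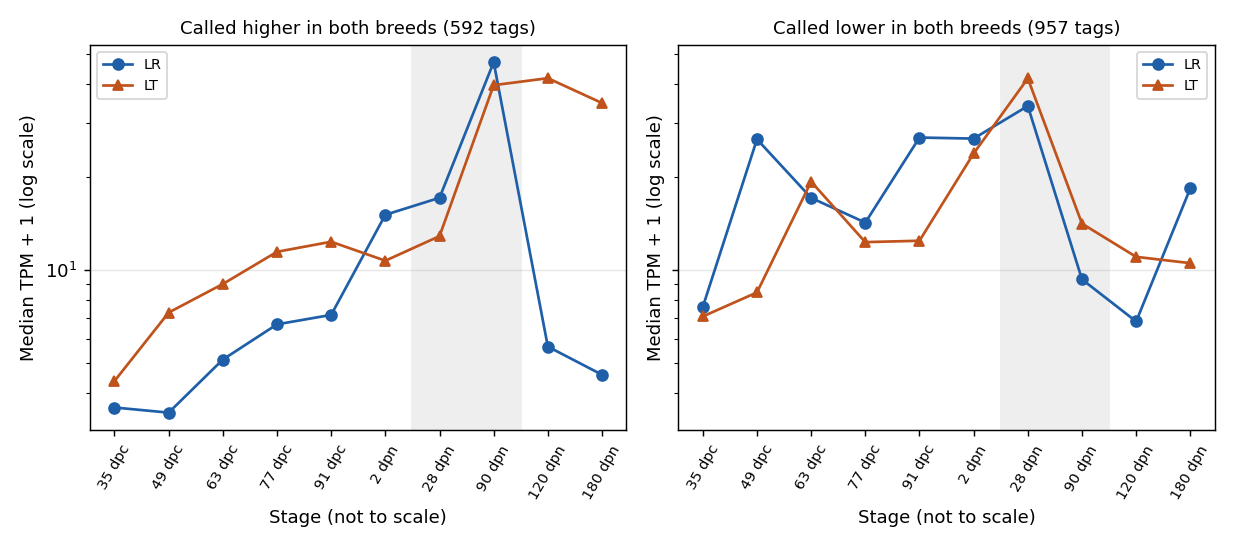
Median TPM + 1 (log scale) of the tags called higher (left, 592 tags) and lower (right, 957 tags) in both breeds, at the 10 stages, with circles for LR and triangles for LT, 1 library a point; the grey band marks 28 and 90 dpn. The higher set has medians of 40.8 TPM in LT and 4.66 TPM in LR at 120 dpn, where the LR libraries of 120 and 180 dpn are unlike the others in make-up and the LR median of all tested tags is 1.46 TPM.

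Among the tags lower in both breeds, L1 to L8 were at 0 to 11.6 TPM at 90 dpn. L3, the most abundant of them, had 439 TPM in LR and 322 TPM in LT at 28 dpn, 11.6 TPM in LR at 90 dpn and 0 in LT at 90 dpn. In LT it was therefore at least 425-fold lower, counted against the 3-count floor, and in LR 37.8-fold lower. L1 was at 117 TPM in LR and 96.1 TPM in LT at 28 dpn and at 1.85 TPM and 0 at 90 dpn. Both tags separated the stages without overlap in these 4 libraries, which a choice of tags by large falls in both breeds favours.

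L2 had the smallest adjusted p of the L tags, with 38.2 TPM in LR and 42.1 TPM in LT at 28 dpn and 0 in both libraries of 90 dpn. That is at least 27.4-fold lower in LR and at least 55.5-fold lower in LT. It was the only tag with at least 100 copies in both libraries of 28 dpn and none at 90 dpn. With at least 30 copies, 5 of the 272679 tags were found at 28 dpn only and 0 at 90 dpn only. In each breed the library of 28 dpn was the deeper, so absence was harder to reach there. L2 ends in a run of 7 A, and over the 20 libraries its median was higher where more tags held a run of 8 A, as described below for L9 to L11 and other named tags.

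L5 stood at 189 and 65.3 TPM at 28 dpn in LR and LT and at 6.95 TPM and 0 at 90 dpn. For L7 the values were 150 and 94.8 TPM at 28 dpn and 6.95 and 0.506 TPM at 90 dpn. L6 lay in the same range, with 117 and 81.9 TPM at 28 dpn and 4.17 TPM and 0 at 90 dpn. L4 and L8 were at 70.5 and 50.9 TPM in LR and at 61.2 and 20.9 TPM in LT at 28 dpn, and at no more than 2.32 TPM in any library of 90 dpn. The log2 differences of L1 to L8, with 1 TPM added, ran from -5.37 to -3.97 in LR and from -8.34 to -4.45 in LT. By edgeR's quasi-likelihood test their adjusted p lay between 0.236 and 0.283, and scaling to library totals instead of TMM gave all 8 an adjusted p of 0.0028 to 0.019.

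Outside the comparison, 7 of these 8 tags shared a profile. L1 and L3 to L8 were at no more than 5.26 TPM in each of the 10 fetal libraries, and at 2 dpn they had 47.2 to 736 TPM in LR and 80.2 to 653 TPM in LT. L2 departed from this, with 19.9 TPM in LR at 91 dpc and 2.04 TPM in LT at 2 dpn. The shared profile was noticed after the values had been seen, and a choice of tags that used neither 28 nor 90 dpn was then made to follow it, so what follows is a description. There were 23 tags with at least 20 TPM at 2 dpn in both breeds and no more than 5 TPM in every fetal library, among them L1 and L4 to L8. At 28 dpn 10 of the 23 were still at 20 TPM or more in both breeds. At 90 dpn 14 of them (60.9%) were at or below 5 TPM in both, against 56 of the 3882 other tags with at least 20 TPM at 2 dpn (1.44%). Without the tags named H or L for this comparison, the numbers were 10 of 17 (58.8%) and 55 of 3878 (1.42%). The level at 28 dpn was not matched between these sets, so a low level at 90 dpn can date from before 28 dpn. Lower at 90 than at 28 dpn in both breeds were 16 of the 23 (69.6%), against 36.9% of the 3882 others. Among the 16 are L1 and L4 to L8, whose direction was fixed by their choice, so this share describes the selection in part. Summed over the 23 tags, LR had 1495 TPM at 2 dpn, 988 TPM at 28 dpn, 250 TPM at 90 dpn and 69.7 TPM at 120 dpn. In LT the sums were 2280, 695, 163 and 143 TPM. The sums were lower at 28 than at 2 dpn in both breeds, although the choice of tags favours a high value at 2 dpn, and 3 of the 23 tags in LR and 6 in LT were higher at 28 dpn. L1 was one of them in both breeds, at 60.97 TPM at 2 dpn and 117 TPM at 28 dpn in LR and at 80.2 and 96.1 TPM in LT. Without the 6 tags named for their difference from 28 to 90 dpn, the sums at 2, 28 and 90 dpn were 691, 293 and 226 TPM in LR and 766, 274 and 163 TPM in LT.

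**Figure D3:**
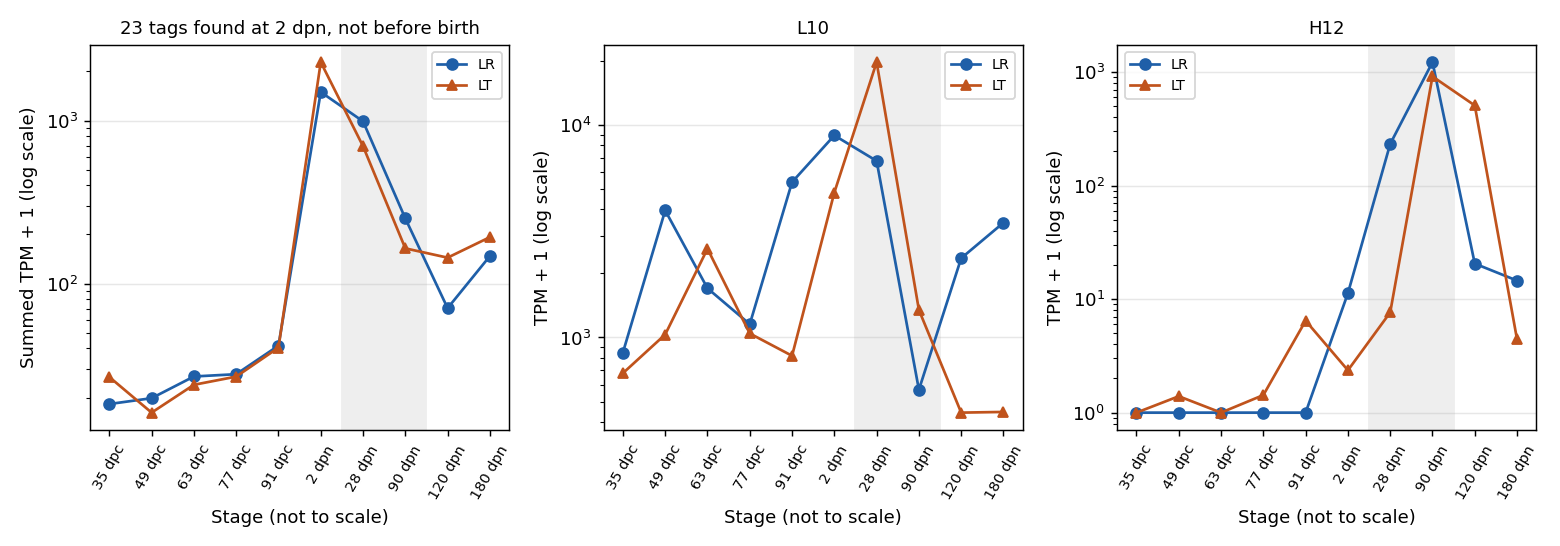
Levels at the 10 stages in LR (circles) and LT (triangles), 1 library a point, on log scales, with the grey band marking 28 and 90 dpn: the summed TPM + 1 of the 23 tags present at 2 dpn and absent before birth (left), and TPM + 1 of L10 (middle) and H12 (right). The 23 tags step up between 91 dpc and 2 dpn, as their choice requires, and are at 250 and 163 TPM at 90 dpn. Of these tags, 6 were named L for their fall from 28 to 90 dpn. Without them the sums at 28 and 90 dpn are 293 and 226 TPM in LR and 274 and 163 TPM in LT. L10 peaks at 19696 TPM in LT at 28 dpn, and H12 peaks at 90 dpn in both breeds.

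L10 and M8 were the most abundant of the named tags that were lower in both breeds. L10 made up 6762 TPM in LR and 19696 TPM in LT at 28 dpn and 567 and 1346 TPM at 90 dpn, 11.9-fold and 14.6-fold lower. M8 went from 18003 to 2600 TPM in LR and from 24807 to 5398 TPM in LT, a log2 difference of -2.50 ± 0.42 (SD, n = 2 breeds). M8 was also low at 120 and 180 dpn, at 623 and 756 TPM in LR and at 2358 and 2331 TPM in LT, whereas at 2 dpn it stood at 11817 and 9714 TPM. L10 was low in LT at the same late stages, at 442 and 446 TPM, but at 2358 and 3463 TPM in LR. Their edgeR adjusted p were 0.728 for L10 and 0.837 for M8, so neither difference passed the test over both breeds.

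L2, L9, L10 and L11 had higher medians in libraries with a larger share of tags that hold a run of A. In the 8 libraries of the series where that share was at least 0.297%, L10 had a median of 4664 TPM (1346 to 19696), and in the 12 libraries where it was at most 0.191%, a median of 940 TPM (442 to 4802). For L11 the medians were 301 and 113 TPM and for L9 30.8 and 1.08 TPM. L2 had a median of 16.03 TPM (0 to 42.1) in the first class and of 0 in the second, where it reached no more than 2.04 TPM. L9 itself holds such a run. The libraries of 28 dpn lay in the first class in both breeds, and at 90 dpn LT lay in the first and LR in the second. A choice of tags high at 28 dpn therefore favours higher values in the first class. Higher medians there were not particular to these tags. All M and Y tags and several other H, L and X tags had them too, while others, such as H9 and L5, had lower ones. Whether this property had a part in the lower levels at 90 dpn was not tested. L9 had 41.9 TPM in LR and 243 TPM in LT at 28 dpn, and 0 and 16.2 TPM at 90 dpn. A more abundant tag 1 base away from L9 had 52.3 and 403 TPM at 28 dpn and 4.64 and 25.5 TPM at 90 dpn. Merged, their family was lower at 90 dpn by log2 differences of -4.08 in LR and -3.96 in LT. L11 was at 238 and 501 TPM at 28 dpn and at 21.8 and 15.7 TPM at 90 dpn. In L12 the levels were 22.0 and 62.6 TPM at 28 dpn and 1.39 and 2.78 TPM at 90 dpn. All 3 were lower in both breeds, as their choice requires, with no overlap between the stages, which their choice favours.

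**Figure D4:**
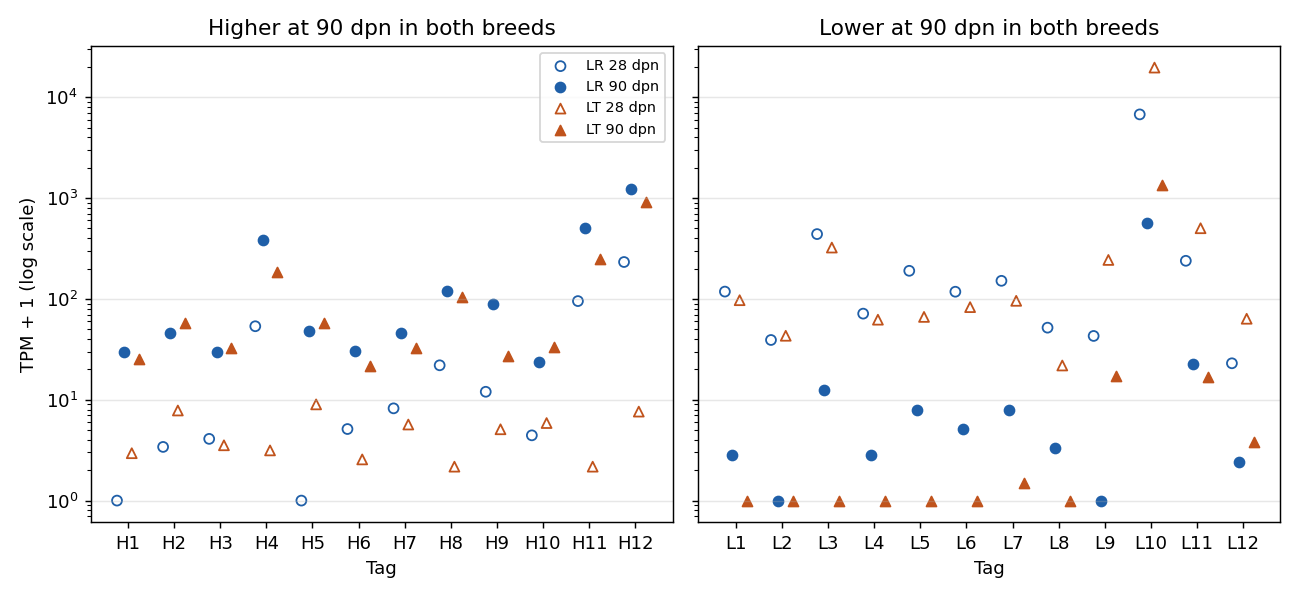
TPM + 1 (log scale) of the 12 tags ranked highest among those higher (left) and among those lower (right) at 90 dpn in both breeds, with open symbols for 28 dpn, filled symbols for 90 dpn, circles for LR and triangles for LT. Filled and open symbols of a tag do not overlap. The choice of tags requires this within each breed and favours it across breeds. L1 to L8 reach 0 to 11.6 TPM at 90 dpn, and L10 reaches 19696 TPM at 28 dpn.

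On the other side, H12 was the most abundant of the 12 tags higher in both breeds. It had 231 TPM in LR and 6.63 TPM in LT at 28 dpn and 1220 and 912 TPM at 90 dpn. The stages did not overlap, which the choice of tags favours, but at 28 dpn LR was already well above LT. H4 had 52.6 and 2.15 TPM at 28 dpn and 381 and 185 TPM at 90 dpn, and H8 had 20.97 and 1.17 TPM at 28 dpn and 119 and 104 TPM at 90 dpn. In each of these 3 tags the difference was larger in LT, by 3.05, 3.15 and 4.51 on the log2 scale for H4, H8 and H12, a difference between single libraries that was not tested.

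H4, H8 and H12 were at or near 0 before birth. H4 and H8 were at 0 in all 10 fetal libraries and H12 at no more than 5.45 TPM. At 2 dpn they were at 0 to 10.3 TPM. Later H4 kept 388 and 210 TPM in LR at 120 and 180 dpn and H8 kept 128 and 77.1 TPM, while H12 had 19.5 and 13.5 TPM. LT had 124 and 35.8 TPM of H4, 98.1 and 19.4 TPM of H8 and 507 and 3.41 TPM of H12 at these stages. H11 had another course. In LT it was at 203 to 319 TPM from 63 to 91 dpc, at 9.74 and 1.17 TPM at 2 and 28 dpn and at 250 TPM at 90 dpn. LR had 94.2 and 503 TPM at 28 and 90 dpn. A tag 1 base away from H11 had 54.3 and 45.9 TPM in LR and 33.5 and 60.5 TPM in LT at these stages. Merged with its neighbours, H11 was at 36.7 TPM in LT at 28 dpn. The merged log2 difference was 1.90 in LR and 3.23 in LT.

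The other 8 higher tags were of lower level, at 20.7 to 89.0 TPM at 90 dpn and, H9 apart, at no more than 7.995 TPM at 28 dpn. H9 had 32 copies in LR and 21 in LT at 28 dpn and 192 and 104 at 90 dpn. H1 rested on 0 copies in LR and 10 in LT at 28 dpn, and on 62 and 96 at 90 dpn. H7 and H10 differed least between the breeds, with log2 differences of 2.48 and 2.52 for H7 and 2.42 and 2.50 for H10. H5 was at 0 in LR at 28 dpn and 46.8 TPM at 90 dpn, but its neighbour 1 base away (C15T, counted from 1 at the first base of CATG) had 229 and 34.3 TPM. Merged with its neighbours, the log2 difference of H5 was -1.49 in LR and 2.22 in LT, so its shared direction was lost. The 12 H tags had edgeR adjusted p of 0.399 to 0.738.

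The 8 most abundant tags made up 13.9% and 16.2% of clean tags in LR at 28 and 90 dpn and 12.3% and 11.4% in LT. M3, M5 and M7 were higher at 90 dpn in both breeds by small steps. M5 went from 12864 to 22162 TPM in LR and from 8837 to 12970 TPM in LT, M3 from 15915 to 21368 and from 11898 to 13047 TPM, and M7 from 14039 to 15667 and from 11888 to 13749 TPM. M8, given above, was the single M tag that was lower in both. M1, the tag with the highest mean level, was higher at 90 dpn in LR (20945 to 37990 TPM) and lower in LT (28048 to 13546 TPM). M2 had the same opposite signs, from 19792 to 29304 TPM and from 25310 to 18291 TPM. M6 was level in LR at 13006 and 12616 TPM, and in LT it was at 4332 TPM at 28 dpn and 26814 TPM at 90 dpn. M4 was lower in LR (24095 to 19896 TPM) and higher in LT (7421 to 10546 TPM). The adjusted p of the 8 tags by edgeR lay between 0.837 and 0.999.

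In the LR library of 120 dpn, one of the pair of unlike make-up, M3, M5 and M6 had 145, 86.0 and 8.75 TPM, against 16718, 17575 and 17760 TPM in LT. Whether the make-up of that library had a part in these low values was not tested. At 28 and 90 dpn their lowest value in LR was 12616 TPM.

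For X1, X2 and X3, named for opposite signs in the breeds, a tag 1 base away was abundant in LR at 28 dpn, where the named tag was at or near 0. X1 was at 0 in LR at 28 dpn and at 1046 TPM at 90 dpn, and at 1646 and 56.2 TPM in LT. Its neighbour (T20G) had 1165 and 121 TPM in LR and 59.7 and 10.4 TPM in LT. Added up with its neighbours, X1 differed by 0.032 on the log2 scale in LR and by -4.68 in LT, so the summed level in LR was nearly the same at both stages. X2 had 1.38 and 80.7 TPM in LR and 4366 and 421 TPM in LT, and its neighbour (C9T) 2684 and 303 TPM in LR and 1.76 TPM and 0 in LT. When merged, both breeds were lower at 90 dpn, by log2 differences of -2.80 and -3.38, and the opposite sign was gone. Y4 was at 28.2 TPM and 0 in LR and at 5.85 and 32.9 TPM in LT, while its neighbour (A19G) had 28.5 and 26.9 TPM in LR and 2.93 and 6.58 TPM in LT. Merged, Y4 kept opposite signs at -1.05 and 1.99.

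**Figure D5:**
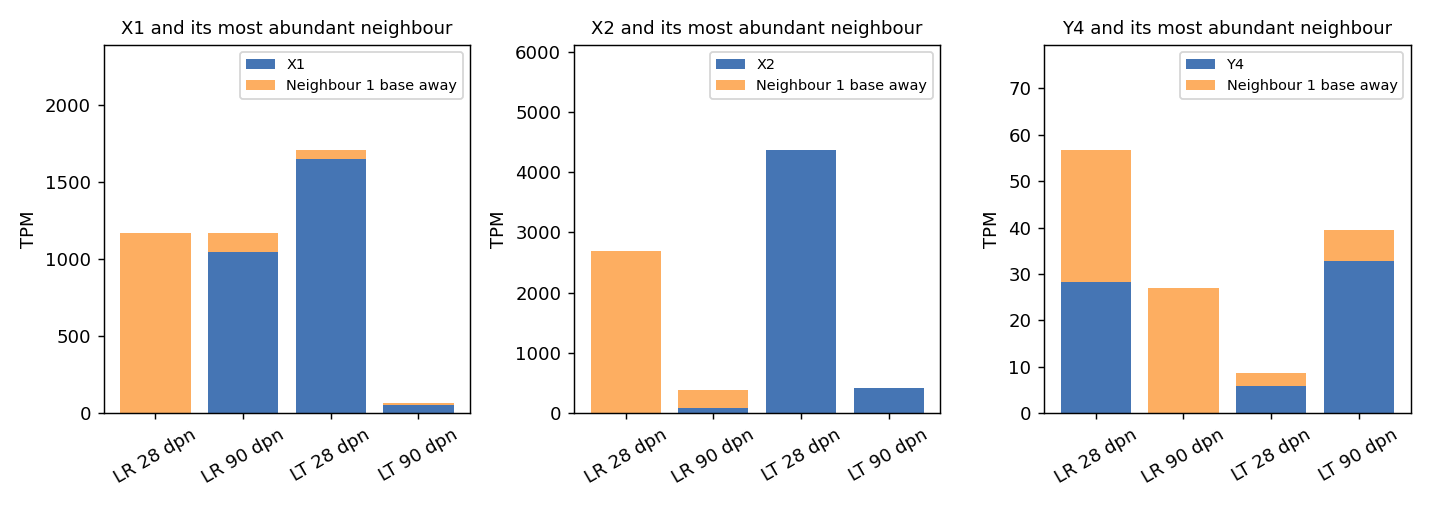
TPM of X1, X2 and Y4 (blue) and of the most abundant tag 1 base away from each (orange), stacked, in the 4 libraries. In LR at 28 dpn X1 and X2 are at 0 and 1.38 TPM and their neighbours at 1165 and 2684 TPM, whereas LT at 28 dpn holds 1646 and 4366 TPM of X1 and X2.

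X3 had 1.38 and 1612 TPM in LR and 1110 and 236 TPM in LT, beside a neighbour (C19T) with 823 and 1581 TPM in LR and 1287 and 1348 TPM in LT. Merging moved its LR log2 difference from 9.41 to 1.95, and opposite signs were kept, with -0.60 in LT. X4 and X5, at 3.09 to 37.6 TPM, each lie 1 base (C14T and A14T) from the same tag, which had 1864 and 8104 TPM in LR and 5545 and 2633 TPM in LT. Merged, that family was higher in LR by 2.14 and lower in LT by 1.08 on the log2 scale, the same signs as X4 and X5 alone. Y5 had no neighbour above 9.11 TPM and kept opposite signs, from 1210 to 250 TPM in LR and from 149 to 833 TPM in LT. Y2 likewise had 52.6 and 4.64 TPM in LR and 11.9 and 77.2 TPM in LT. Y1 lost its opposite sign when merged, with log2 differences of 0.27 and 0.54. Y3 kept opposite signs at -2.32 and 1.67. Of the 10 tags named for opposite signs, none had an edgeR adjusted p under 0.954.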

How the data were processed

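Each library held longissimus RNA from a pool of 3 pigs of 1 breed and age, made by the authors as a tag library (Illumina DGE, NlaIII and MmeI). The authors removed adaptor, empty and low-quality tags and tags seen once, and deposited the unnormalized count of each distinct 21-base tag. They also deposited TPM values (counts per 1000000 clean tags, by library). An absent tag was taken as 0. No aligner or annotation entered the tag counts, and tags were not matched to genes, so gene lists were not analysed here.

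The counts of the 4 libraries were tested with edgeR 4.0.16 (quasi-likelihood, breed as block, TMM factors, filterByExpr, Benjamini-Hochberg adjusted p below 0.05), with DESeq2 1.42.0 as an alternative. Within a breed, a 2-sided exact binomial test compared the libraries (p below 0.009, FDR below 0.02, absolute log2 ratio above 0.5, 0.01 TPM for 0). Its p was double the smaller tail; this form was kept after the calls of both usual forms had been seen. TMM shifted the median log2 difference over tags from -0.13 to -0.030. Other log2 values had 1 TPM added. Named tags were the 12 in each direction called within both breeds, with at least 20 TPM at the higher stage, ranked by the smaller of their log2 differences, the 8 most abundant and 5 for each opposite pattern. Members and lists were chosen with earlier results of these data known. The tests were tested on simulated data with 200 tags changed 4-fold or 16-fold. At the fitted spread, edgeR recovered 3 of those changed 4-fold and 50 of those changed 16-fold. DESeq2 made 117 calls, of which 106 were changed tags in the right direction. R was 4.3.3 and Python 3.11.15. Intervals and floors cover counting error only.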

Additional observations from a re-analysis of the deposited data

Results flagged for a closer look

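For 10 tags the difference between 90 and 28 dpn had opposite signs in LR and LT, with 1 library in each breed and stage. The difference between the breeds was not tested. Given as the log2 difference in LT minus that in LR, with 1 TPM added, it was -14.88 for X1, -8.48 for X2, -11.63 for X3, -5.34 for X4 and -4.43 for X5, which were higher at 90 dpn in LR. It was 6.86 for Y1, 5.85 for Y2, 4.77 for Y3, 7.17 for Y4 and 4.75 for Y5, which were higher in LT. X2 and Y1 lost the opposite signs, and X1 nearly so, when tags 1 base apart were merged.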

How the results depend on the processing

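For the test over both breeds, where TMM gave 0 calls, scaling to total clean tags gave 22, DESeq2 52 and no filter on low counts 34, while the stricter filter, the fit without the breed block, the fit with the 2 dpn libraries and merging of tags 1 base apart gave 0. Within the fit that added 2 dpn, leaving out 1 library gave 29 to 890 calls, the highest without LR at 90 dpn; the lone library of a stage was then assumed to vary like the others. In LT the calls within the breed numbered 7982 after thinning to equal totals, which, like the other 2-sided form of the exact binomial p (4664 calls in LR and 17361 in LT), was added after seeing the data. The share of tags with a shared direction was 56.8% among tags of at least 50 TPM and 56.6% after merging, and the other alternatives moved it less. The 24 H and L tags kept the direction of their mean log2 difference with library totals, without the breed block, in the 6-library fit and, for those not merged into another tag, after merging. Their direction in each breed alone is fixed by their choice. H5 and L9 were each merged into another tag, with log2 differences in LR of -1.49 and -4.08. Signs of the mean log2 difference over both breeds turned only for tags with a value near 0 or opposite breeds. M1 was at -0.095 with library totals and -1.05 in LT alone, M2 at -0.47 in LT alone, and M4 and M6 at -0.28 and -0.044 in LR alone. Without the breed block the values were -0.54 (X1), -3.05 (X2), -0.37 (Y1), 0.51 (Y2), -0.64 (Y3), 0.14 (Y4) and -0.18 (Y5), in the 6-library fit -0.79 (X1), -2.06 (X2) and 1.52 (Y2), and after merging -2.19 (X1), -2.95 (X2) and 0.64 (Y4). In LT alone they were -4.85 (X1), -3.37 (X2), -2.23 (X3), -2.11 (X4), -2.07 (X5), 2.60 (Y2) and 2.31 (Y4), and in LR alone -3.09 (Y1), -2.32 (Y3) and -2.27 (Y5). Apart from these opposite breeds, the cause was not tested. Depth limits tags under about 1 TPM, and 1 library per breed and stage leaves the spread between animals unmeasured.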
